A study of Mus musculus with 10 samples.

Results

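Genes for ribosome biogenesis and polyamine synthesis that are known targets of the transcription factor MYC were examined in bone marrow (BM) after transplantation of hematopoietic stem cells of the fetal liver (FL-HSCs). The donor embryos came from vitamin D-deficient, VD(−), or vitamin D-sufficient, VD(+), dams. The 40 genes, Myc among them, were taken by name from the array's annotation, each by its brightest probe set that lists no other gene. Of the 40, 36 could be measured, among 19938 genes measured in all. Amd1 and Noc2l had no probe set in the annotation, whereas the probe sets of Sms and Ppan also list another gene and were not used. The measured genes were Myc, 2 of polyamine synthesis, 4 of RNA polymerase I transcription, 6 nucleolar proteins, 7 proteins of the small nucleolar ribonucleoproteins (snoRNPs), 6 of small subunit assembly and 10 of large subunit assembly.

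The table holds 10 arrays of recipient BM, 5 in each group, 3 from single samples and 2 from pools. The recipients were lethally irradiated, VD-sufficient C57BL6 mice of both sexes. The labels give an age of 8 weeks. In the paper, 8 weeks is the recipients' age at transplantation and, in its main text, also the time from transplantation to this marrow's collection. A figure legend gives a later collection time, and which of these the labels mean is not stated. The donors' dams were fed a vitamin D-deficient or a vitamin D-sufficient diet, so the groups differ in the diet of the donor's mother and share the recipients' diet. Since a pool may or may not contain the single mice, p-values measure only the spread between these arrays. The paper's methods state that fetal liver cells of male and female embryos were mixed before transplantation, and marrow of an irradiated recipient can keep some host cells. By its labels the material was BM, although BM macrophages appear in the treatment notes. Markers of neutrophils averaged 11.40 in VD(−) and 11.43 in VD(+) on the log2 scale and those of erythroid cells 9.03 and 9.01, so the RNA held markers of marrow cells other than macrophages.

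A cell makes ribosomes in the nucleolus, where RNA polymerase I transcribes the ribosomal RNA precursor, snoRNPs modify and cut it, and assembly factors fold it with ribosomal proteins into the small and the large subunit. MYC, bound to DNA with its partner MAX at the E-box motif CACGTG, is a known activator of genes in all of these steps and of Odc1, which encodes the enzyme that commits ornithine to polyamines. Polyamines bind RNA and are needed for translation in growing cells, and dividing progenitors of the marrow are known for a high demand for ribosomes.

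The promoters are shown first because MYC is known to bind the E-box. RefSeq windows on GRCm38.p6, from 250 bases before to 50 bases after the annotated start, were at hand for 29 of the 36 measured genes and were missing for Myc, Srm, Npm1, Fbl, Rrp12, Bop1 and Rrs1. CACGTG, which reads the same on both strands, was found in 7 of the 29 (24.1%), against 8.09% of 27025 genes with such windows. In the 250 bases before the start alone, windows of the measured genes were also richer in G and C than all windows (median 59.8% against 52.4%). They held more CpG dinucleotides there (median 18 against 6), and the part of this composition in the E-box share was not tested. Each match is given here with up to 10 bases on each side and the E-box in capitals, 5′ to 3′ on the strand of the gene. Rrn3 holds a pair of them, and a match is a run of letters, not a measured binding site.
Rrn3, chr16:13780474-13780499, plus strand: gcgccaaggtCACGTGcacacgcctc
Rrn3, chr16:13780641-13780666, plus strand: acgctctgctCACGTGggccgcgtcc
Mybbp1a, chr11:72441357-72441376, plus strand: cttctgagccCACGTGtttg
Wdr43, chr17:71616222-71616247, plus strand: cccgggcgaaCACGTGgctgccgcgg
Tsr1, chr11:74898094-74898119, plus strand: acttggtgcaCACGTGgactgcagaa
Pes1, chr11:3963967-3963992, plus strand: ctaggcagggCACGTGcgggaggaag
Nop2, chr6:125131813-125131838, plus strand: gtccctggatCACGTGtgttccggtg
Nle1, chr11:82908357-82908382, minus strand: ggttctcctcCACGTGgggacgcagg

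None of these 7 genes was among the 7 that were higher in VD(−) at a nominal p, of which 6 have a window. The median log2 difference was 0.09 over the 7 genes with the E-box and 0.18 over the 22 without it. A second motif, CACGCG, was searched on both strands (CGCGTG on the other) and was chosen after the values were seen. It was found in 10 of the 29 genes (34.5%), against 10.5% of all genes with windows. Of the 6 genes at a nominal p with a window, 2 held it, Nolc1 and Ddx21, a share like that of the 29. The median log2 difference was 0.16 over the 10 genes with it and 0.12 over the 19 without it. The part of base composition in its share was not tested either. The motifs differ in 1 base, so that a match of one is never a match of the other. The 250 bases before the start are printed next, as the sequence upstream of the 4 genes whose arrays did not overlap between the groups, with the CACGCG match of Nolc1 in capitals.
Noc3l, chr19:38819238-38819487, minus strand: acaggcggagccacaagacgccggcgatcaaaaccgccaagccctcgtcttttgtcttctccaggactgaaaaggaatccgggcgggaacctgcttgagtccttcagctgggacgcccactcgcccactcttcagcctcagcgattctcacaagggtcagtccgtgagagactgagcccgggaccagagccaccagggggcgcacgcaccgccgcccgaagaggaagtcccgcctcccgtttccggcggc
Mrto4, chr4:139352577-139352826, minus strand: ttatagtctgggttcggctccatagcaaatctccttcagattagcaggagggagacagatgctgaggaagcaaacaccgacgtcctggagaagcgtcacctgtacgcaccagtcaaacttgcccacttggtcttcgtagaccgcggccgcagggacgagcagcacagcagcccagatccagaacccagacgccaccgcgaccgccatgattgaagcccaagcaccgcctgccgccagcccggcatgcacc
Heatr1, chr13:12395125-12395374, plus strand: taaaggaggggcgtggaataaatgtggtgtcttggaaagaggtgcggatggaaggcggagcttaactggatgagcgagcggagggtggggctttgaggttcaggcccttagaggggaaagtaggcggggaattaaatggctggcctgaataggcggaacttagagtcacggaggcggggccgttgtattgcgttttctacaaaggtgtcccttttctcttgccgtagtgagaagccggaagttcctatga
Nolc1, chr19:46075597-46075846, plus strand: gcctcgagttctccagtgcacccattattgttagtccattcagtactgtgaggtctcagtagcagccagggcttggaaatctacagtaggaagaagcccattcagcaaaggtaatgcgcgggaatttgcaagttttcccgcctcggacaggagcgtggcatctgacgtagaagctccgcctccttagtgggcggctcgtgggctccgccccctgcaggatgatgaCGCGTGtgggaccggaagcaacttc

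The difference of VD(−) less VD(+) was above 0 for 34 of the 36 genes, with a median log2 difference of 0.11. Over all genes, 50.3% lay above 0 with a median of 0.0010, and over the 11048 genes at least as bright as the dimmest of the 36, 56.8% lay above 0 with a median of 0.020. Ncl, at -0.03, and Pes1, at -0.07, were the only 2 below 0. In limma, 7 genes were higher in VD(−) at a nominal p under 0.05, before adjustment: Srm, Nolc1, Ddx21, Heatr1, Noc3l, Mrto4 and Wdr12. The same threshold was passed upward by 4.05% of all genes and by 5.96% of the brighter ones. None of the 36 was lower at a nominal p (2.95% of all genes were), and none passed an adjusted p under 0.05 in limma, which 0.0903% of all genes did. The smallest adjusted p was 0.240, for Noc3l. The methods' t-test gave 7 genes at a nominal p and 0 after adjustment, with a smallest adjusted p of 0.104. Its 7 were not all the same genes, since Wdr12 missed the threshold there and Wdr43 passed it. For Nolc1, Heatr1, Mrto4 and Noc3l all 5 VD(−) arrays lay above all 5 VD(+) arrays. The same held for 1.09% of all genes and for 195 of the 11048 brighter ones. For none of the 36 did the VD(−) arrays all lie below, as for 0.632% of all genes.

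**Figure D1:**
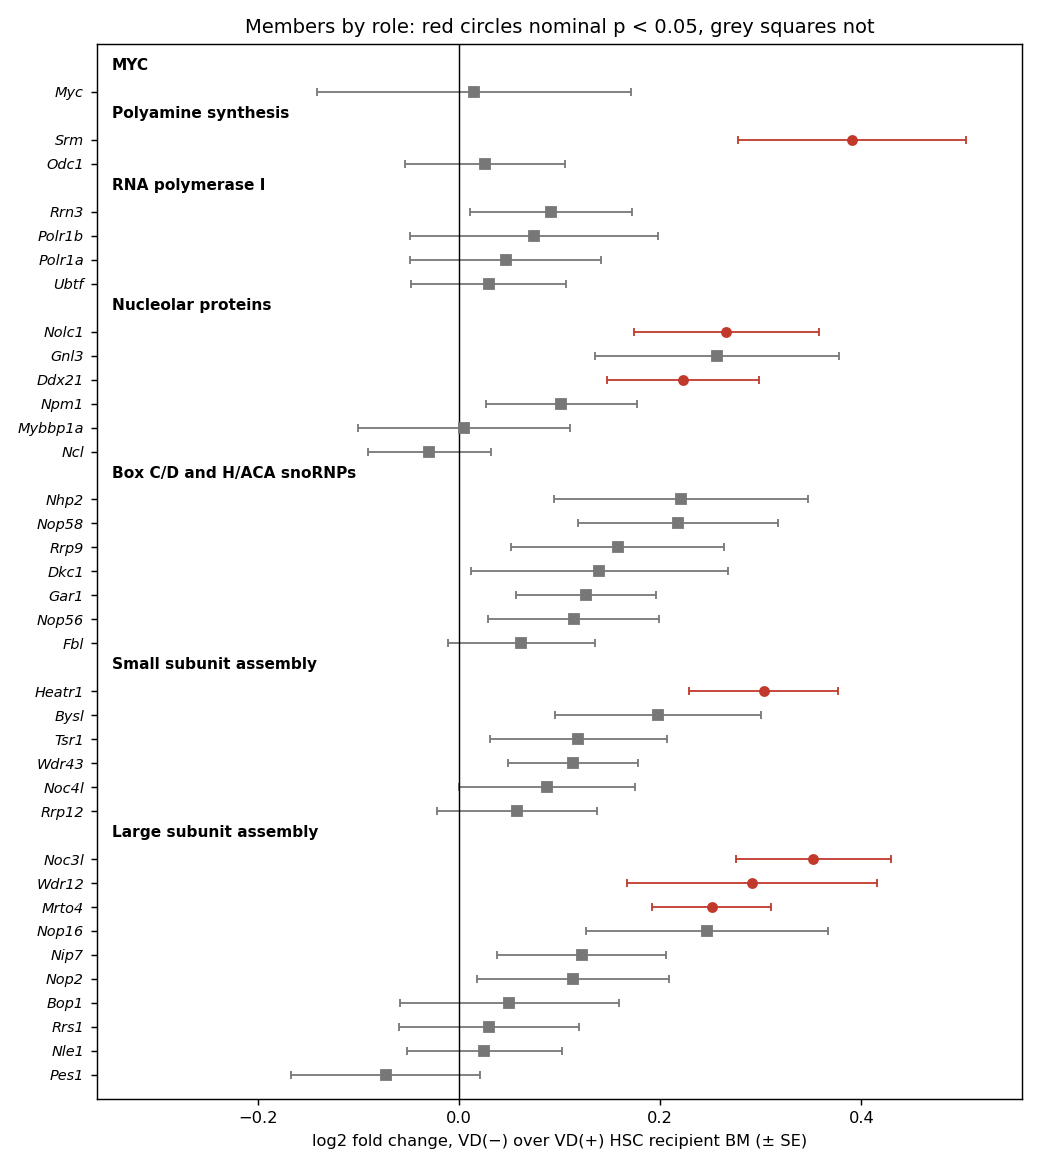
Log2 difference between VD(−) and VD(+) HSC recipient BM (horizontal axis, with its standard error) for each of the 36 genes, grouped by role. Of the 36, 34 lie to the right of 0, and the red circles mark the 7 with a nominal p under 0.05.

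The mean log2 value of the 36 genes was 7.08, 7.19 and 7.23 in VD(+) replicates 1 to 3 and 7.17 and 7.21 in its pools 1 and 2, and it was 7.29, 7.27 and 7.32 in VD(−) replicates 1 to 3 and 7.32 and 7.35 in its pools. The lowest VD(−) array thus lay above the highest VD(+) array, although the gap between them was small beside the range within VD(+). VD(+) replicate 1 was the lowest array of its group for 17 of the 36 genes, a larger share than the 33.8% of the 11048 brighter genes. Without it the median difference was 0.082, 32 genes lay above 0 and 7 stayed at a nominal p. Array medians over all probe sets lay between 4.74 and 4.80.

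**Figure D2:**
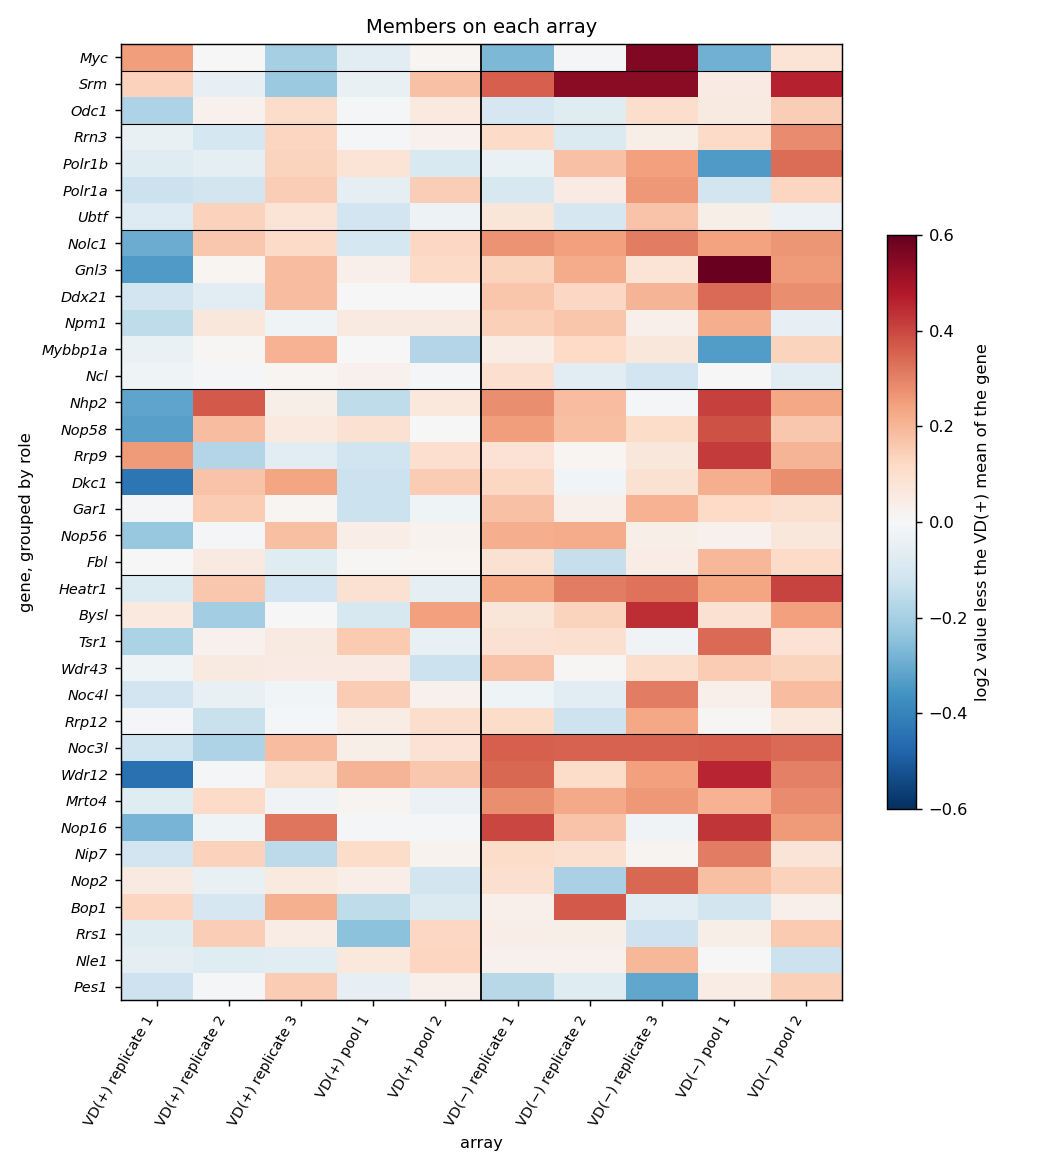
Log2 value of each gene (rows, grouped by role) on each array (columns), less the VD(+) mean of that gene, from -0.6 in blue to 0.6 in red. Noc3l, Mrto4, Heatr1 and Nolc1 are red on all 5 VD(−) arrays, VD(+) replicate 1 is blue for many genes, and Myc varies within both groups.

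Other measures moved with the groups. Summed signal of 13 monocyte and macrophage markers lay between 3214 and 4226 in VD(−) and between 2402 and 3083 in VD(+), without overlap. Of the 13, 11 were above 0, 5 of them at a nominal p, beside 4.05% of all genes. Summed signal of 7 mature B cell markers was 1357 to 1713 in VD(−) and 1595 to 2080 in VD(+), with 6 of 7 below 0. Of these, 4 were lower at a nominal p, beside 2.95% of all genes. In both lists only Cd14, at 1.70 (adjusted p = 0.0109 in limma), and Fcer2a, at -0.58 (adjusted p = 0.0305), passed the adjusted p. Markers of proliferating cells overlapped between the groups, at 12414 to 13028 in VD(−) and 11925 to 12682 in VD(+), with 12 of 16 above 0 and a median difference of 0.038. Those of hematopoietic stem and progenitor cells were above 0 for 3 of 11. Y-linked genes averaged 6.64, 6.80 and 5.31 in VD(−) replicate 1, pool 1 and pool 2 and between 2.25 and 2.56 in the other 7 arrays. Xist was at 7.76, 8.14 and 9.83 in those 3 arrays and between 10.08 and 10.33 in the others. No VD(+) array, single or pool, thus showed Y-linked signal, although the methods describe mixed male and female donor cells. With the Y-linked level less the Xist level as a covariate, 32 of the 36 ribosome and polyamine genes stayed above 0, with a median of 0.11. Without the 3 arrays with Y-linked signal 31 did, with a median of 0.11. The part of the cell markers in the result was not tested, and in bulk marrow fewer cells of a type and less RNA per cell cannot be told apart.

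Myc itself, the transcription factor whose targets these are, differed little between the groups and much within them. Its log2 values were 8.99, 8.74 and 8.54 in VD(+) replicates 1 to 3 and 8.67 and 8.75 in the pools, against 8.47, 8.73 and 9.29 in VD(−) replicates 1 to 3 and 8.45 and 8.82 in the pools. The VD(−) arrays spanned more than the whole VD(+) range on both sides, with VD(−) replicate 3 the highest of all. The log2 difference was 0.01 ± 0.16 (SE), with a 95% interval from -0.33 to 0.36 (exact permutation p = 0.913). Its sign was kept in 16 of 22 alternative settings, ranging from -0.12 without VD(−) replicate 3 to 0.29 with the Y-linked level less Xist as a covariate.

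Of the 2 measured polyamine genes, Srm was higher in VD(−) and Odc1 was not distinguishable. Srm encodes spermidine synthase, which makes spermidine from putrescine. Its VD(+) values were 7.53, 7.34 and 7.17 in replicates 1 to 3 and 7.35 and 7.57 in the pools, and its VD(−) values were 7.75, 7.93 and 7.93 in the replicates and 7.44 and 7.85 in the pools. Only VD(−) pool 1 fell within the VD(+) range. The VD(−) level was 1.31 times that in VD(+), a log2 difference of 0.39 ± 0.11 (SE), with a 95% interval from 0.14 to 0.64 (nominal p = 0.00567 and adjusted p = 0.482 in limma; exact permutation p = 0.0238). It was the largest difference of the 36, and it was 0.19 in the pools taken alone (adjusted p = 0.940).

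Odc1, ornithine decarboxylase, measured 10.03, 10.24 and 10.33 in VD(+) replicates 1 to 3 and 10.21 and 10.28 in the pools, against 10.12, 10.14 and 10.32 in VD(−) replicates 1 to 3 and 10.27 and 10.36 in the pools. The groups overlapped almost wholly, with a log2 difference of 0.03 ± 0.08 (SE), a 95% interval from -0.15 to 0.20 and an exact permutation p of 0.730. A second Odc1 probe set differed by 0.05 (adjusted p = 0.946 in limma). Among 16 other genes of polyamine synthesis, breakdown, transport and control, 9 were above 0, with a median of 0.020. The one at a nominal p was Atp13a2, a lysosomal polyamine exporter, at -0.22 ± 0.08 (adjusted p = 0.634). Oaz2, an antizyme that brings ornithine decarboxylase to the proteasome, was at -0.17, and Mtap, which salvages the methylthioadenosine that polyamine synthesis leaves, at 0.19.

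**Figure D3:**
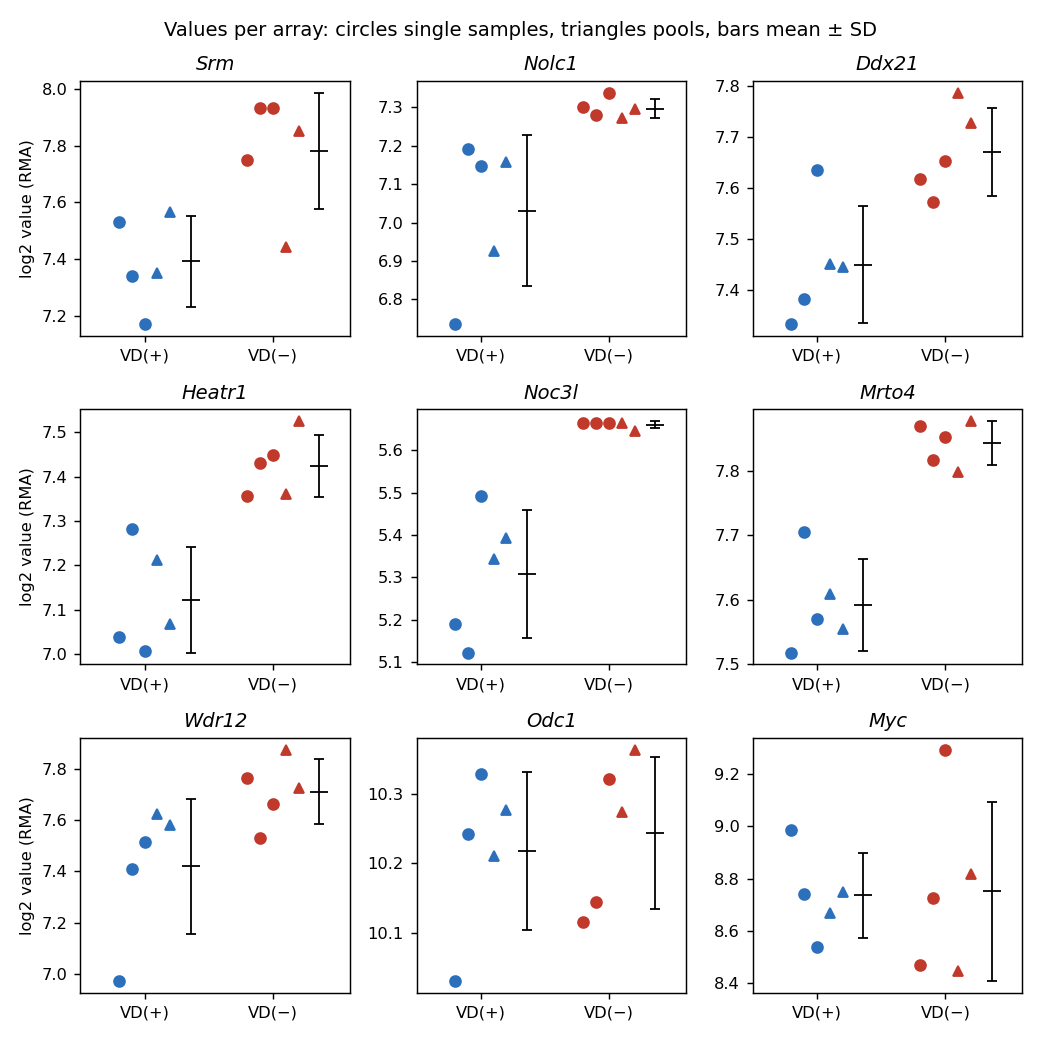
Log2 value on each array for 9 genes, VD(+) on the left and VD(−) on the right of each panel, with single samples as circles, pools as triangles and the mean ± SD as bars. Nolc1, Heatr1, Noc3l and Mrto4 do not overlap between the groups, whereas Odc1 and Myc do.

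The 4 genes of RNA polymerase I transcription all lay slightly above 0, at a median of 0.061, and none reached a nominal p. Polr1a, the largest subunit of the enzyme, measured 6.58, 6.59 and 6.85 in VD(+) replicates 1 to 3 and 6.65 and 6.85 in the pools, against 6.61, 6.75 and 6.96 in VD(−) replicates and 6.60 and 6.83 in the pools. Polr1b, the second largest subunit, measured 5.38, 5.40 and 5.59 in VD(+) replicates and 5.53 and 5.36 in the pools, against 5.41, 5.63 and 5.70 in VD(−) replicates and 5.11 and 5.79 in the pools. For both subunits the groups overlapped, and VD(−) pool 1 was the lowest array of its group. Rrn3, which brings the polymerase to the ribosomal RNA promoter and whose own promoter holds the pair of E-boxes shown above, measured 7.47, 7.40 and 7.64 in VD(+) replicates and 7.50 and 7.54 in the pools, against 7.62, 7.42 and 7.54 in VD(−) replicates and 7.62 and 7.79 in the pools. Ubtf, which binds the ribosomal RNA genes and opens them for transcription, measured 8.01, 8.22 and 8.17 in VD(+) replicates and 7.97 and 8.06 in the pools, against 8.16, 7.99 and 8.25 in VD(−) replicates and 8.12 and 8.05 in the pools. The log2 differences were 0.05 for Polr1a, 0.07 for Polr1b, 0.09 for Rrn3 and 0.03 for Ubtf, all smaller than the range within either group. The widest 95% interval, that of Polr1b, ran from -0.20 to 0.35.

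Other genes of this machinery, not among the 40, were above 0 in 16 of 17 cases, with a median of 0.12. Higher at a nominal p were 4 of them, beside 4.05% of all genes. Polr2l, a small subunit shared by all nuclear RNA polymerases, was higher by 0.27 ± 0.06 on the log2 scale without overlap of the groups (adjusted p = 0.272). Polr2f, also a shared subunit, was at 0.26 ± 0.10 and Znrd1, a small subunit of RNA polymerase I, at 0.24 ± 0.08, both at a nominal p.

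Among the 6 nucleolar proteins, 5 lay above 0, with a median of 0.16, and 2 were at a nominal p. Nolc1, a phosphoprotein of the nucleolus and the Cajal body that binds snoRNPs, measured 6.73, 7.19 and 7.15 in VD(+) replicates 1 to 3 and 6.93 and 7.16 in the pools, against 7.30, 7.28 and 7.34 in VD(−) replicates and 7.27 and 7.29 in the pools. The VD(−) arrays lay close together and above every VD(+) array, of which replicate 1 was the lowest. The log2 difference was 0.27 ± 0.09 (nominal p = 0.0152 and adjusted p = 0.579 in limma; exact permutation p = 0.00794, the smallest that 5 arrays against 5 can give), and it was 0.19 without VD(+) replicate 1 (adjusted p = 0.719). Nolc1 missed the nominal threshold in the single samples alone, in the pools alone and without the 3 arrays with Y-linked signal, where the difference was 0.28 (adjusted p = 0.860). Ddx21, an RNA helicase that acts in ribosomal RNA transcription and processing, measured 7.33, 7.38 and 7.63 in VD(+) replicates and 7.45 and 7.44 in the pools, against 7.62, 7.57 and 7.65 in VD(−) replicates and 7.79 and 7.73 in the pools. Its groups met only where VD(+) replicate 3 exceeded VD(−) replicates 1 and 2, with a log2 difference of 0.22 ± 0.08 (nominal p = 0.0136 and adjusted p = 0.567 in limma; exact permutation p = 0.0238). Without the 3 arrays with Y-linked signal it was 0.16 and no longer at a nominal p (adjusted p = 0.912). Ddx21 also missed a nominal p in the single samples alone and with the Y-linked level less Xist as a covariate.

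Gnl3, nucleostemin, was just outside the threshold with a log2 difference of 0.26 (nominal p = 0.0586 in limma; exact permutation p = 0.0476). Its highest array was VD(−) pool 1, at 8.17, and its lowest VD(+) replicate 1, at 7.24. The other 3 nucleolar proteins were not at a nominal p. Npm1, nucleophosmin, was at 0.10, Ncl, nucleolin, at -0.03 and Mybbp1a, a nucleolar protein that binds transcription factors, at 0.00.

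The 7 snoRNP proteins all lay above 0, between 0.06 and 0.22 with a median of 0.14, yet none was at a nominal p. Box C/D snoRNPs guide ribose methylation of ribosomal RNA, and their proteins Nop58, Nop56 and Fbl, the methyltransferase fibrillarin, differed by 0.22, 0.11 and 0.06. Nop58 was just outside the threshold (nominal p = 0.0523 in limma; exact permutation p = 0.0317), with VD(+) replicate 1 at 7.50 and the other VD(+) arrays between 7.82 and 8.01. Rrp9, which joins the snoRNP that cuts the precursor for the small subunit, differed by 0.16. Box H/ACA snoRNPs guide pseudouridylation, and Dkc1, the pseudouridine synthase dyskerin, Gar1 and Nhp2 differed by 0.14, 0.13 and 0.22. Of 9 other snoRNP genes 7 were above 0, with a median of 0.17. At a nominal p 2 were higher, beside 4.05% of all genes. Nop10, the remaining core protein of the H/ACA particle, was at 0.38 ± 0.11 (adjusted p = 0.458), Pih1d1, of a chaperone complex that assembles snoRNPs, at 0.28 ± 0.10 and Ruvbl2, an ATPase of the same pathway, at 0.17 ± 0.09, the last with a nominal p of 0.0671.

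**Figure D4:**
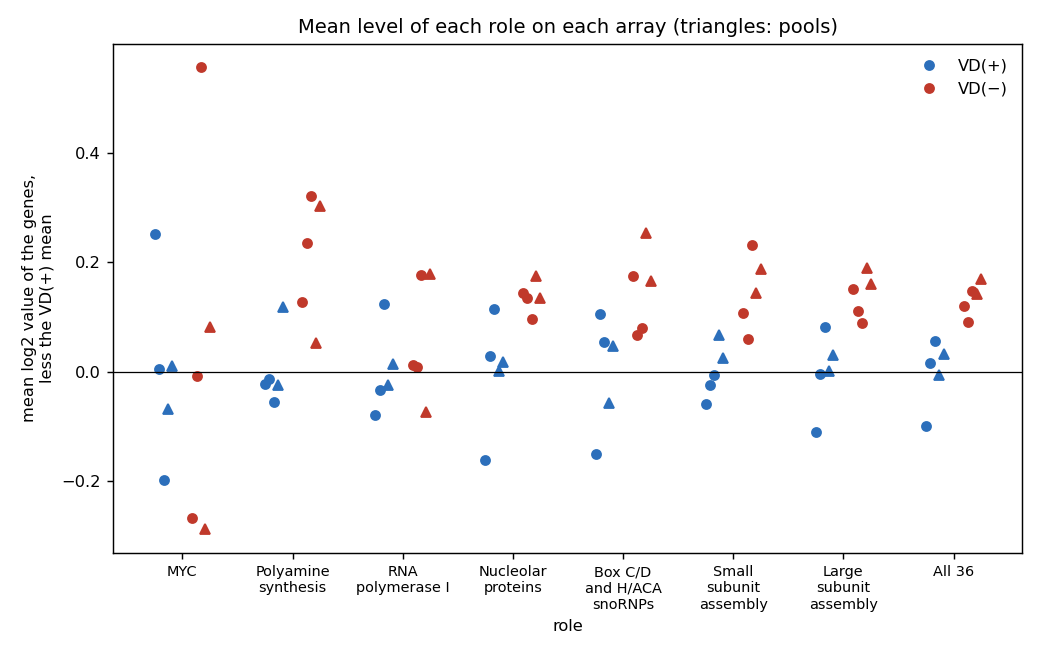
Mean log2 value of the genes of each role on each array, less the VD(+) mean of that role (vertical axis), with single samples as circles and pools as triangles. The VD(−) and VD(+) arrays overlap for each role except large subunit assembly, and over all 36 genes they do not.

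Small subunit assembly was represented by 6 genes, all above 0, with a median of 0.12. Heatr1, a factor of the early processing complex on the ribosomal RNA precursor, measured 7.04, 7.28 and 7.01 in VD(+) replicates 1 to 3 and 7.21 and 7.07 in the pools, against 7.36, 7.43 and 7.45 in VD(−) replicates and 7.36 and 7.53 in the pools. Every VD(−) array lay above every VD(+) array. Its VD(−) level was 1.23 times the VD(+) level, a log2 difference of 0.30 ± 0.07 with a 95% interval above 0 (nominal p = 0.00185 and adjusted p = 0.314 in limma; exact permutation p = 0.00794). Bysl, which acts in the maturation of the small subunit, differed by 0.20, Tsr1, a late cytoplasmic factor, by 0.12, Wdr43 by 0.11, Noc4l by 0.09 and Rrp12, which serves in subunit export, by 0.06. For Wdr43, a factor of the same early complex as Heatr1, only VD(−) replicate 2 fell within the VD(+) range (exact permutation p = 0.0317).

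The other 37 small subunit genes measured were above 0 in 33 cases, with a median of 0.14. At a nominal p 6 were higher and none lower, beside 4.05% and 2.95% of all genes. The 3 with the smallest p, all factors of the early processing complex or the nucleolus, did not overlap between the groups. Nol10 differed by 0.33 ± 0.07 (adjusted p = 0.207), Utp4 by 0.26 ± 0.07 and Wdr75 by 0.31 ± 0.10.

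Large subunit assembly held 3 of the 7 genes at a nominal p, and 9 of its 10 genes lay above 0, with a median of 0.12. Noc3l, of a complex that takes part in early large subunit maturation, measured 5.19, 5.12 and 5.49 in VD(+) replicates 1 to 3 and 5.34 and 5.39 in the pools, against 5.66 in each of the 3 VD(−) replicates and in pool 1 and 5.65 in pool 2. The VD(−) arrays were nearly equal, with an SD of 0.0083 against 0.15 in VD(+), and all lay above VD(+). The VD(−) level was 1.28 times the VD(+) level, a log2 difference of 0.35 ± 0.08 (nominal p = 8.94e-04 and adjusted p = 0.240 in limma; exact permutation p = 0.00794).

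Mrto4, which holds the place of a stalk protein on the maturing large subunit, measured 7.52, 7.70 and 7.57 in VD(+) replicates and 7.61 and 7.55 in the pools, against 7.87, 7.82 and 7.85 in VD(−) replicates and 7.80 and 7.88 in the pools. The groups did not overlap, and the log2 difference was 0.25 ± 0.06, or 1.19 times (nominal p = 0.00150 and adjusted p = 0.290 in limma; exact permutation p = 0.00794). A second Mrto4 probe set differed by 0.34 ± 0.06 (adjusted p = 0.142).

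Wdr12, which works in one complex with Pes1 and Bop1, measured 6.97, 7.41 and 7.51 in VD(+) replicates and 7.62 and 7.58 in the pools, against 7.76, 7.53 and 7.66 in VD(−) replicates and 7.88 and 7.72 in the pools. VD(+) replicate 1 stood far below the other arrays, and VD(−) replicate 2 fell within the VD(+) range. The log2 difference was 0.29 ± 0.12 (nominal p = 0.0398 and adjusted p = 0.683 in limma; exact permutation p = 0.0317). Without VD(+) replicate 1 it was 0.18 (adjusted p = 0.821), and Wdr12 missed the nominal threshold in 12 of 22 alternatives, more than any other of the 7. Leaving out VD(+) replicate 2, VD(−) replicate 1, 3, pool 1 or pool 2 also ended its call. Its second probe set differed by 0.27 and was itself at a nominal p (adjusted p = 0.564). The partners of Wdr12 did not share its difference at a nominal p, with Pes1 at -0.07 and Bop1 at 0.05.

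The remaining large subunit factors were Nop16 at 0.25 (adjusted p = 0.732), Nip7 at 0.12, Nop2, a ribosomal RNA methyltransferase, at 0.11, Rrs1 at 0.03 and Nle1 at 0.03. Of the 46 other large subunit genes measured, 40 were above 0, with a median of 0.10. At a nominal p 8 were higher and none lower, beside 4.05% and 2.95% of all genes. Surf6 was at 0.27 ± 0.08 (adjusted p = 0.537), Rpf2, which helps to place a small ribosomal RNA in the subunit, at 0.30 ± 0.10 and Rrp15 at 0.34 ± 0.12.

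**Figure D5:**
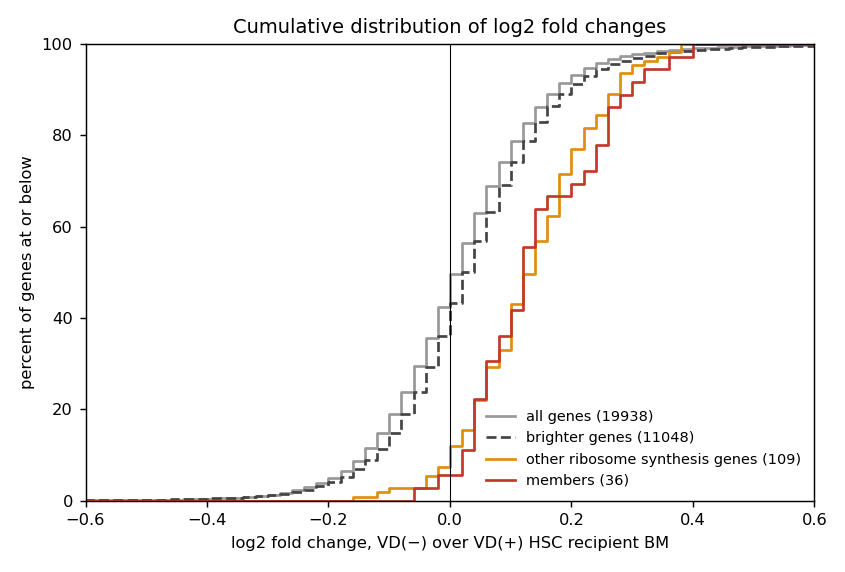
Cumulative percent of genes (vertical axis) at or below each log2 difference between VD(−) and VD(+) (horizontal axis), for the 36 genes, the 109 other ribosome synthesis genes, the 11048 brighter genes and all 19938 genes. The curves of the 36 and of the 109 lie to the right of both backgrounds, with medians of 0.11 and 0.12 against 0.020 and 0.0010.

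Joined, the 109 other genes of RNA polymerase I, snoRNPs and subunit assembly were above 0 in 96 cases, with a median of 0.12. At a nominal p were 20, all higher, where 4.05% of all genes were higher. None passed the adjusted p in limma, and the smallest was 0.207. Without VD(+) replicate 1, 88 of the 109 were above 0, with a median of 0.087. There 15 were higher at a nominal p, beside 3.30% of all genes. With the Y-linked level less the Xist level as a covariate 82 were above 0, with a median of 0.076. In that setting 7 were higher at a nominal p, beside 4.27% of all genes. Without the 3 arrays with Y-linked signal 83 were above 0, with a median of 0.086. There 5 were higher at a nominal p, beside 3.08% of all genes.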

How the data were processed

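The data are 10 arrays of recipient BM. The authors deposited log2 values from RMA in Partek software, which corrects background, equalises the distributions of the arrays and summarises probes, so that differences in total RNA are removed. A miRNA array is named in the methods, but the platform's probe sets are those of a whole-transcript mouse gene array. The genome build behind the probe sets is not given in the sources used here. Paper and legend differ on the time of collection. The number of arrays limits the precision.

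Of 35556 probe sets, 21789 list 1 gene, 1621 several and 12146 none. By gene identifier 21698 matched a current gene table, with 0 symbols changed, and 0 columns were left unused. The limma package (version 3.58.1, R 4.3.3) was fitted to all probe sets (lmFit, eBayes, two-sided), with Benjamini-Hochberg adjustment over all of them. Differences are VD(−) less VD(+), and errors are limma's standard errors. Single genes were also tested with a two-sided exact permutation test. The procedure was tested on simulated data. The genes and lists were chosen with earlier results of these data known. The text names every measured gene of the 40 and, of each other list, the 3 with the smallest nominal p. Promoters are from a RefSeq table. Its sequences by that rule would have been those of genes at a nominal p with the E-box, of which there were 0, so that those printed were chosen otherwise. Same-numbered arrays did not deviate together (correlations -0.052 to 0.061, 0 of 5 over 0.1), so the numbers were not taken as pairs. The 22 alternatives included the methods' t-test, other scalings and leaving out each array.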

Additional observations from a re-analysis of the deposited data

Results flagged for a closer look

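Of 74 groups of 5 arrays tested for a single array far from the rest, 2 passed, where chance flags about 1 in 20, or 3.7. Mybbp1a measured 6.62 in VD(−) pool 1, below the other 4 VD(−) arrays, of which the highest was at 7.08. Noc3l measured 5.65 in VD(−) pool 2, where the other 4 VD(−) arrays were at 5.66, so that the gap is large only beside their very small range.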

How the results depend on the processing

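The median log2 difference of the 36 genes stayed above 0 in all 22 alternatives, no gene was lower at a nominal p in any of them, and none passed the adjusted p. The count of genes higher at a nominal p, 7 with all arrays, was 4 in the single samples alone, 2 in the pools alone and 4 without the arrays with Y-linked signal, settings that use fewer arrays. The share of all genes higher at a nominal p was 4.05% with all arrays and 1.84%, 1.90% and 3.08% in these settings. Leaving out each array in turn gave 6 to 9 such genes (3.14% to 4.35% of all genes), 29 to 34 genes above 0 and a median from 0.082 to 0.13. With the replicate number as a block, 7 genes were higher at a nominal p and the median was 0.11, and the block changed no call of the 7. All 7 kept their sign in 22 of 22 alternatives. Srm, Heatr1, Mrto4 and Noc3l were at a nominal p in 21 of them and missed it in the pools alone, Nolc1 (lost in the single samples, the pools and without the Y-linked arrays) and Ddx21 (lost in the single samples and in both Y-linked settings) were in 19, and Wdr12 in 10. The cause of these changes was not tested.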

Other observations

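Of 30 MYC targets outside ribosome synthesis, 27 were above 0, with a median log2 difference of 0.12. Higher in VD(−) at a nominal p were 4, beside 4.05% of all genes and 5.96% of the brighter ones. Ctps, which makes CTP, was at 0.26 ± 0.08 (adjusted p = 0.540 in limma), Eif4e, the cap-binding translation factor, at 0.15 ± 0.06 and Eif4ebp1, which binds and restrains it, at 0.17 ± 0.07. Of 8 genes that MYC is known to repress, 5 were above 0, and 2 were lower at a nominal p, beside 2.95% of all genes. Gadd45a, a stress-induced growth arrest gene, was at -0.25 ± 0.06 without overlap of the groups (adjusted p = 0.386), Cdkn1b, a cyclin-dependent kinase inhibitor, at -0.23 ± 0.08 and Cdkn2b, another, at 0.09. Of 12 other genes of the MYC network 4 were above 0, with a median of -0.02. Mxd4, a MAX partner that opposes MYC, was at -0.31 ± 0.11 (adjusted p = 0.618 in limma), Mycn at -0.25 and Mxd3 at 0.12, and none passed the adjusted p.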
